A study of Homo sapiens with 9 samples.

Results

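The genes described here are the zinc finger (ZNF) genes that lie side by side on the short arm of human chromosome 19, next to the centromere. Members were all gene models named ZNF with a number and at most 1 further capital letter whose exons on chromosome 19 lie within chr19:19668153-24129967 of hg38. This gave 36 members of the 26485 gene models counted, against 217 ZNF genes elsewhere on chromosome 19 and 276 on other chromosomes. The members span 4.462 Mb, 18 lie on each strand, and 13 further gene models share the window. Of these members, 4 (ZNF85, ZNF100, ZNF43 and ZNF676) also have exons on alternate contigs in the annotation and were kept, because the choice of members names ZNF676 itself. Leaving these out gives 32 members. ZNF90, ZNF208, ZNF676 and ZNF729 had been singled out in the study's own display of these libraries, so counts are also given without them. The files give no chromosome bands, and the label 19p12 was not checked gene by gene.

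All libraries came from HAP1, a near-haploid, adherent human line that descends from a chronic myeloid leukaemia line and carries a BCR and ABL1 fusion, and all were labelled wild type. Cells were sorted by flow cytometry into lysis buffer, their total RNA was bound to NAxtra magnetic beads and treated with DNase, and SMART-Seq Stranded libraries were sequenced. The groups were single cells (n = 3), 10 cells (n = 2), 100 cells (n = 2) and 1000 cells (n = 2), with no treatment, and the study asked whether expression was captured alike down to 1 cell. The labels speak of biological replicates without naming separate cultures, so the p-values measure only the spread between these libraries, which may be technical. Libraries held between 42842970 and 61645865 counts, and no library was much shallower than the rest. Transcripts of BCR and ABL1 were present in every library, while 4 of 9 blood lineage markers (GATA1, HBG1, HBG2 and MPO) were at 0 throughout, with a list sum of 0 to 0.157 counts in every 1000000 (CPM) in single cells and 0 to 1.39 CPM in the libraries of more cells. LUM, DCN and FAP of 6 fibroblast markers, and KRT5, KRT14 and KRT1 of 4 keratinocyte markers, were at 0 as well. Of the markers that were present, COL1A1 had 3.76 to 15.3 CPM in single cells and 8.55 to 16.8 CPM in the other libraries, and KRT10 had 0.392 to 4.34 CPM in single cells and 6.70 to 12.5 CPM in the others. THY1 had 10.6 CPM in Single Cell Rep 2 and 0 in the other single cells, against 0.388 to 1.62 CPM in the libraries of more cells. The part of these genes in the results was not tested.

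Most genes of this region encode KRAB zinc finger proteins. Such a protein reads DNA through a long row of zinc fingers, and its KRAB domain recruits TRIM28 (KAP1), which brings the histone methyltransferase SETDB1 and HP1 proteins and leads to repressed chromatin. Many of them bind transposable elements, and the family grew by repeated gene duplication in primates, which left neighbouring genes that resemble each other in sequence. ZNF91 and ZNF93 are the best known here, as repressors of SVA and LINE-1 elements.

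The resemblance extended to the promoters. RefSeq (GRCh38.p14) gave a window of 250 bases before to 50 bases after the start site for 27 of 36 members, in 28 windows. ZNF506, ZNF676 and ZNF729 were among the members without a window. The stretches shown are those just upstream of the start of some members on which the results below turn. Each CCAAT box is in capitals, and the stretches read 5′ to 3′ on the gene's own strand. They are shown because nearly the same stretch recurs in many members. Each stretch shown holds a pair of boxes but that of ZNF492, where only the box nearer the start reads CCAAT. The same holds for ZNF91, ZNF254, ZNF100 and ZNF257, which are not shown.
ZNF93 (chr19:19900850-19900904, plus strand): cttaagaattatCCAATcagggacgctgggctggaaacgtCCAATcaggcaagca
ZNF714 (chr19:21082105-21082159, plus strand): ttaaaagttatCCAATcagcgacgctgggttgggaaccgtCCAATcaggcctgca
ZNF675 (chr19:23687221-23687275, minus strand): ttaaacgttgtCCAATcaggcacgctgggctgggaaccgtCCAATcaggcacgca
ZNF90 (chr19:20077907-20077961, plus strand): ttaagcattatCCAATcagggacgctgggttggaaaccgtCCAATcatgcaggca
ZNF208 (chr19:22010982-22011036, minus strand): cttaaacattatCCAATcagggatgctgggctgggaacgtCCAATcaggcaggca
ZNF486 (chr19:20167117-20167171, plus strand): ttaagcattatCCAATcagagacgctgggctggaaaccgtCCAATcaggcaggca
ZNF431 (chr19:21141942-21141996, plus strand): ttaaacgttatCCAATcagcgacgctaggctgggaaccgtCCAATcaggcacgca
ZNF492 (chr19:22634232-22634286, plus strand): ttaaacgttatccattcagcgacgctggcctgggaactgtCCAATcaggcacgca

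The motif CCAATCAG, searched on both strands, occurred in 27 of 28 member windows (96.4%), against 29 of 233 windows of the other chromosome 19 ZNF genes (12.4%) and 3.97% of all 35116 windows. At least 2 copies of CCAAT, the core of that motif, were found in 19 member windows (67.9%), against 10.8% of all windows. In 17 windows an upstream pair could be measured, and its boxes began 28 or 29 bases apart in every one of them. A further string, TGTCACTCA, occurred in 21 member windows (75.0%) and in 0.481% of all windows. These strings were picked after reading the members' windows, and a match is a description of the letters, not a sign that a factor bound there. ZNF43, ZNF254 and ZNF101 begin at other start sites in the counted annotation than in RefSeq, so their windows may not be the promoters of the counted gene models.

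Similarity between members also bears on their counts. Reads that mapped to several places were left out by the authors' counting, so a member with near-identical copies was undercounted. Over GENCODE 29 transcripts, a median of 5.6% of a member's 50-base words also occurred in transcripts of another gene, on either strand. The share exceeded 10% for 6 members, ZNF724P (48.7%), ZNF98 (41.0%), ZNF492 (33.9%), ZNF90 (21.1%), ZNF208 (13.8%) and ZNF726 (10.8%), and the levels of these are uncertain. This share does not count a member's own copy on an alternate contig, as annotated for ZNF85, ZNF100, ZNF43 and ZNF676. Whether reads of these were left out for that reason was not tested, so their levels are uncertain too. Exons of the members overlapped no other gene model on either strand.

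Most of the cluster was expressed in every library. Every library had counts for at least 35 members, and the number at 1 CPM or more ran from 29 (Single Cell Rep 2) to 35. Over the 9 libraries, 28 members averaged at least 10 CPM, where the library size behind CPM is the one scaled by edgeR's TMM method. Levels per kb used the exons on chromosome 19 alone. The highest means over the 9 libraries were those of ZNF91 (26.5 CPM per kb), ZNF675 (22.9), ZNF724P (18.9), ZNF254 (18.4) and ZNF676 (14.9). ZNF675, also called TIZ, encodes an inhibitor of TRAF6 signalling. ZNF91 alone averaged more than 100 CPM. At the other end, the pseudogene ZNF826P was at 0 in all 3 single cells and at no more than 0.069 CPM elsewhere, and was too low to be tested, which left 35 members in the tests.

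Summed over all members, the single cells gave 1474, 722.8 and 1738 CPM (Rep 1, Rep 2 and Rep 3), or 1311 ± 526.6 CPM (SD, n = 3), against 854.7 ± 68.04 CPM (SD, n = 6) in the libraries of more cells, which ran from 750.4 to 931.4 CPM. Single Cell Rep 1 and Rep 3 lay above all 6 of these libraries, and Single Cell Rep 2 lay below them all. Without ZNF90, ZNF208, ZNF676 and ZNF729 the single cells gave 1169, 686.4 and 1167 CPM, against 681 to 734.9 CPM in the libraries of more cells, so that Single Cell Rep 2 then fell within their range. In a pool of sorted cells, a transcript made by few cells and a low level in every cell cannot be told apart.

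When single cells were compared with the 6 libraries of 10, 100 and 1000 cells, 4 of 35 members were higher in the single cells, ZNF506, ZNF714, ZNF675 and ZNF93, and 0 were lower (edgeR's quasi-likelihood test, Benjamini-Hochberg adjusted p over 15603 genes under 0.05). Of all genes tested, 2.22% were called higher and 4.45% lower. At an unadjusted p under 0.05, 13 members were higher and 0 lower, where 10.8% and 13.8% of all genes were. DESeq2 called 9 members higher and 0 lower (6.8% and 9.83% of all genes), and limma-voom called 3 higher and 0 lower (2.36% and 5.83%). The fold change was above 0 for 30 of 35 members, against 51.2% of all genes, with a median of 0.66 on the log2 scale against 0.01 for all genes. For the remaining ZNF genes of chromosome 19 the median was 0.32, with 13 higher and 4 lower of 202 tested, and for ZNF genes of other chromosomes it was 0.15, with 6 higher and 6 lower of 242. The difference between the cluster and these other genes was not tested. Without ZNF90, ZNF208, ZNF676 and ZNF729, the same 4 were called of 31, and the median was 0.53.

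**Figure D1:**
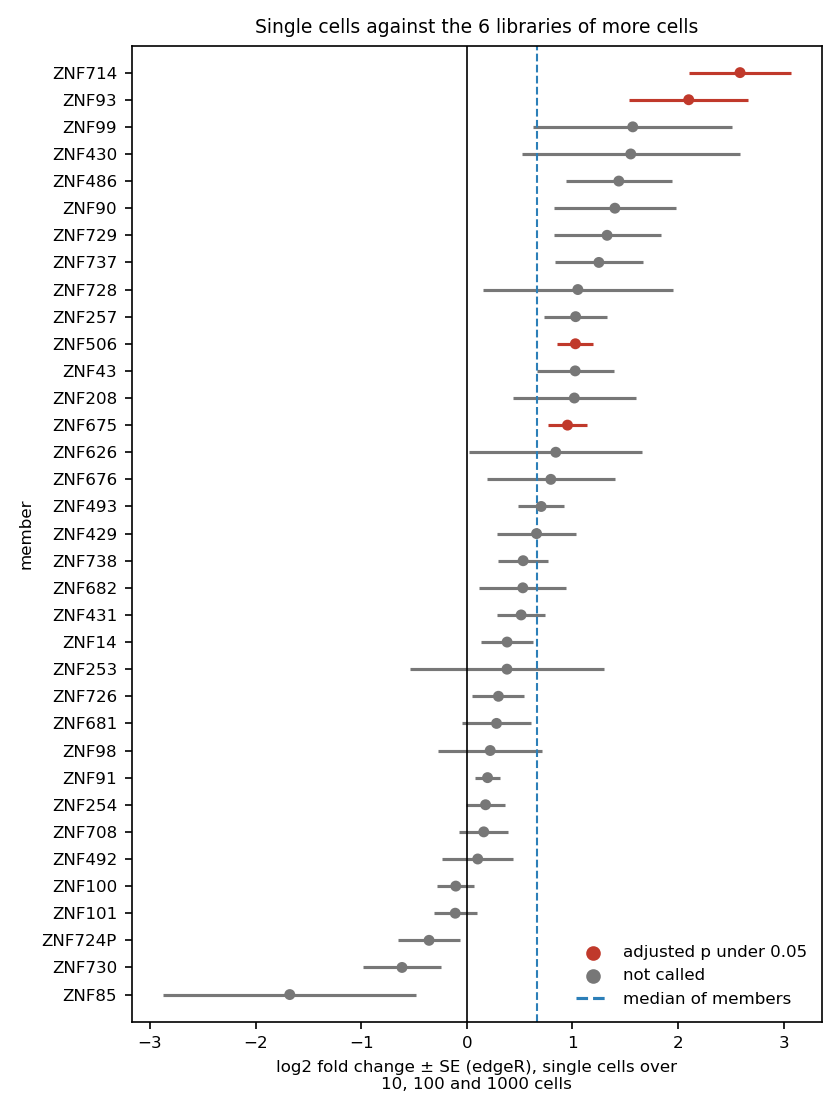
Log2 fold change of each of the 35 tested members in single cells (n = 3) over the libraries of 10, 100 and 1000 cells (n = 6), as points with bars of ± 1 SE from edgeR's quasi-likelihood fit. The 4 members in red passed an adjusted p of 0.05, the dashed line is the median of 0.66, and only 5 members fell left of 0.

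ZNF506 (chr19:19792711-19821751, minus strand) had 48.1, 40.8 and 65.5 CPM in Single Cell Rep 1, 2 and 3, against a lowest, median and highest of 21.2, 25.2 and 28.1 CPM in the libraries of more cells. Every single cell thus lay above every other library. Its log2 fold change was 1.03 (SE 0.171, edgeR adjusted p = 0.0184).

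ZNF714 (chr19:21082147-21125080, plus strand) showed the largest difference of the 35 members, with 28.8, 13.97 and 28.0 CPM in the single cells, against 0.775, 4.30 and 5.98 CPM (lowest, median and highest) in the other 6 libraries. The groups did not overlap, and even the lowest single cell had more than any pool of cells. The log2 fold change was 2.59 (SE 0.479, edgeR adjusted p = 0.019).

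ZNF675 had 100.2, 77.3 and 46.9 CPM in the single cells, against 36.0, 39.1 and 40.5 CPM in the libraries of more cells (lowest, median and highest). Here Single Cell Rep 1 was highest and Rep 3 lowest of the 3 cells, and the groups again did not overlap. The log2 fold change was 0.95 (SE 0.187, edgeR adjusted p = 0.0222). Members with all 3 cells above all 6 other libraries numbered 3 of 35, where 4.83% of all genes had this pattern, and 0 members had all 3 cells below, where 10.1% of all genes did.

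ZNF93 (chr19:19900913-19935573, plus strand), the repressor of LINE-1 elements, had 28.4, 5.78 and 49.0 CPM in the single cells, against 2.21, 5.98 and 12.9 CPM in the libraries of more cells. Single Cell Rep 1 and Rep 3 were above all 6 of these libraries, whereas Rep 2 was among them, so the groups overlapped. Its log2 fold change was 2.10 (SE 0.566, edgeR adjusted p = 0.0483).

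Among the members that only DESeq2 called higher (ZNF257, ZNF43, ZNF486, ZNF493 and ZNF737), ZNF486 had 45.7, 9.39 and 46.0 CPM in the single cells, against 3.64, 13.1 and 19.6 CPM in the libraries of more cells. ZNF43 had 35.7, 17.2 and 41.0 CPM, against 6.28, 15.9 and 23.4 CPM. For both, Single Cell Rep 1 and Rep 3 were above all pools and Rep 2 was among them. Their edgeR adjusted p was 0.101 for ZNF486 and 0.106 for ZNF43.

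The calls by edgeR rested on few libraries, and on a spread per gene taken as common to single cells and pools. The summed CPM of members varied more in single cells (SD 526.6) than in pools (SD 68.04). The p-values may therefore understate the spread between single cells. The count of members called was 0 when 100 Cell Rep 2 was left out (smallest edgeR adjusted p 0.0607), and likewise without either 1000-cell library (0.062 without Rep 1 and 0.0634 without Rep 2), and no gene of any kind was then called. Fitting all 9 libraries as 4 groups also gave 0 (smallest edgeR adjusted p 0.102), where 0% of all genes were called. Without Single Cell Rep 2 the count was 18, all higher, and ZNF506, ZNF714, ZNF675 and ZNF93 were among them. Of all genes, 19.8% were then called in either direction. Without Single Cell Rep 1 it was 5, of which ZNF85 was lower (17.8% of all genes), and without Single Cell Rep 3 it was 6 (15%). ZNF93 kept its call with DESeq2, with DESeq2 size factors, after thinning all libraries to the smallest total, and without Single Cell Rep 2 or 10 Cell Rep 1. It lost the call under every other alternative tried (adjusted p 0.0501 to 0.208), among them library totals with no further scaling, other filters on low counts, limma-voom and the replicate block.

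**Figure D2:**
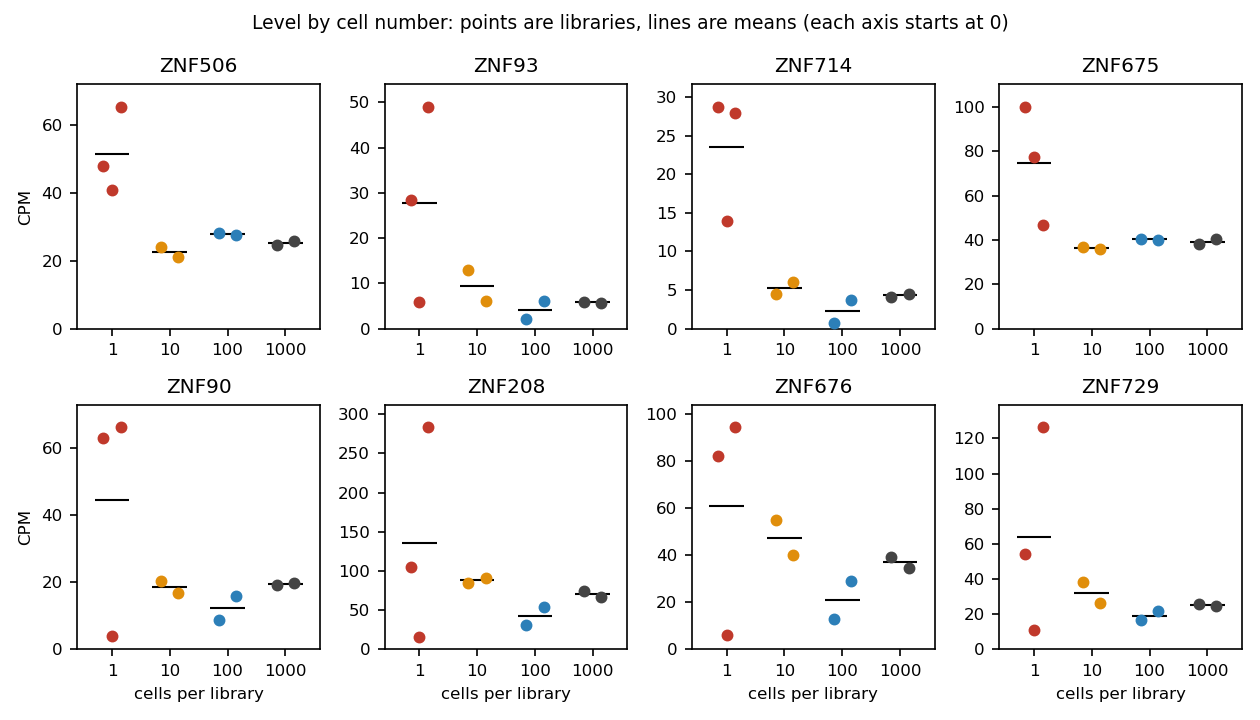
CPM (linear axes from 0) by number of cells per library for the 4 members called in single cells (top row) and the 4 members singled out in the study's display (bottom row), with points for libraries and lines for group means. In the bottom row the lowest point of each panel is Single Cell Rep 2, at 3.86 CPM for ZNF90 and 16.0 CPM for ZNF208.

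In each of the 4 members set apart, the single cells lay on both sides of the other libraries. ZNF208, at a locus associated with telomere length in people, had 105.5, 16.0 and 283.5 CPM in the single cells, against 30.3, 70.4 and 91.3 CPM (lowest, median and highest) in the libraries of more cells. ZNF676, linked to the same trait, had 82.2, 5.90 and 94.3 CPM in the single cells, against 12.9, 36.9 and 54.9 CPM. Single Cell Rep 2 was thus below, and the other cells above, all 6 libraries for both genes.

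The same arrangement held for the remaining pair. ZNF90 had 62.9, 3.86 and 66.1 CPM in the single cells, against 8.80, 17.97 and 20.4 CPM in the libraries of more cells. ZNF729 had 54.4, 10.6 and 126.4 CPM, against 16.4, 25.1 and 38.0 CPM. No member of this set was called by edgeR (adjusted p of 0.317 for ZNF208, 0.469 for ZNF676, 0.159 for ZNF90 and 0.129 for ZNF729), and the log2 fold changes were 1.02 ± 0.584, 0.80 ± 0.607, 1.40 ± 0.578 and 1.33 ± 0.506 (± SE) in that order.

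The cluster did not move as a whole in the same direction in all 3 cells. In Single Cell Rep 1, 27 of 35 members lay above the highest of the 6 libraries of more cells and 4 below the lowest, where 32.8% and 37.9% of all genes did. Single Cell Rep 3 gave 26 above and 5 below (33.2% and 41.6% of all genes). Single Cell Rep 2 gave 7 above and 20 below (31.6% and 38.5% of all genes). With 1 library on one side, these counts carry no test. The median difference from the mean of the 6 libraries was 0.94 in Rep 1, -0.37 in Rep 2 and 0.95 in Rep 3 on the log2 scale, against -0.07, -0.08 and -0.12 for all genes. Without the 4 members set apart, the counts above and below were 23 and 4, 7 and 16, and 22 and 5.

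**Figure D3:**
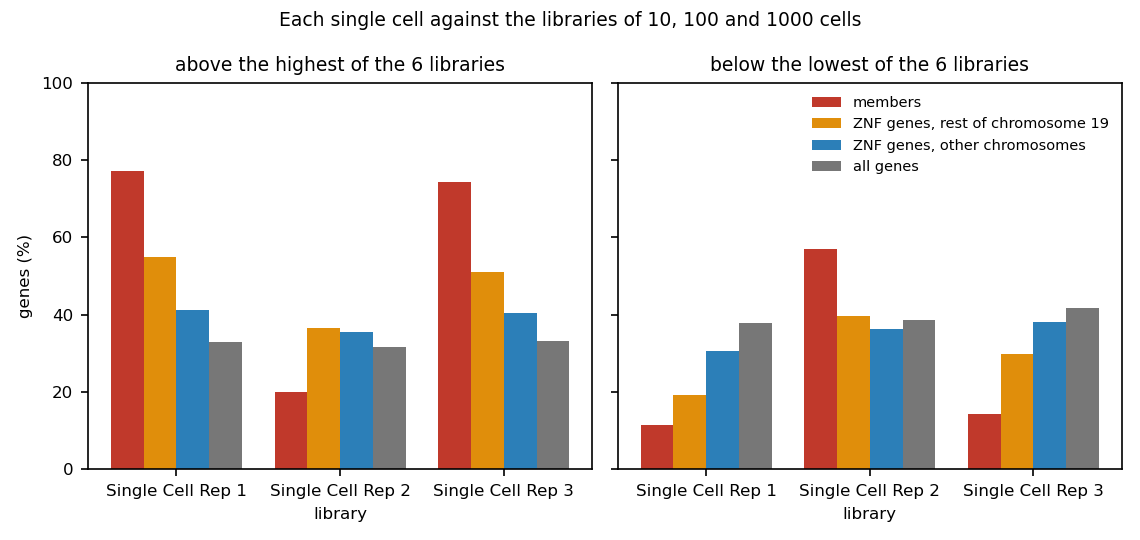
Share of genes (%) above the highest (left) and below the lowest (right) of the 6 libraries of more cells in each single cell, for the members (35 tested), the ZNF genes elsewhere on chromosome 19 (202), the ZNF genes of other chromosomes (242) and all genes (15603). Members reached 77.1% above in Rep 1 and 74.3% in Rep 3, and 57.1% below in Rep 2.

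Of the 202 other ZNF genes of chromosome 19 that were tested, 55% were above in Single Cell Rep 1, 36.6% in Rep 2 and 51% in Rep 3, while 19.3%, 39.6% and 29.7% were below. ZNF genes of other chromosomes gave 41.3%, 35.5% and 40.5% above. These differences between lists were not tested.

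The commonest arrangement, shared by 11 members, was above the 6 libraries in Rep 1 and Rep 3 and below them in Rep 2, which 4.6% of all genes had. It took in ZNF682, ZNF90, ZNF626, ZNF430, ZNF708, ZNF208, ZNF676, ZNF729, ZNF98, ZNF99 and ZNF728. A further 8 members (ZNF14, ZNF93, ZNF486, ZNF737, ZNF493, ZNF43, ZNF257 and ZNF91) were above in Rep 1 and Rep 3 and within the range in Rep 2, as were 3.78% of all genes. Of 35 members, 33 were higher in Rep 1 than in Rep 2 (47.9% of all genes) and 28 were higher in Rep 3 than in Rep 2 (45.8%), whereas Rep 1 exceeded Rep 3 for 15 (48.3%).

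Several members were close to absent from Single Cell Rep 2, and 5 of them (ZNF253, ZNF85, ZNF430, ZNF99 and ZNF728) had 2 or 3 counts there. ZNF728 had 31.7, 0.059 and 26.0 CPM in the single cells, against 5.99, 9.26 and 13.6 CPM (lowest, median and highest) in the libraries of more cells. ZNF99 had 13.8, 0.059 and 49.8 CPM, against 4.85, 6.88 and 9.86 CPM. For both genes 1 cell was close to 0 and the other cells exceeded every pool.

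ZNF430 had 20.5, 0.039 and 8.67 CPM in the single cells, against 0.446, 3.69 and 4.60 CPM in the libraries of more cells. ZNF253 had 10.9, 0.059 and 4.78 CPM, against 1.86, 4.71 and 5.41 CPM, so that only Rep 1 was above the pools. ZNF85, the lowest of the tested members in mean CPM, had 1.18, 0.039 and 0.019 CPM, against 0.762, 1.12 and 2.08 CPM, and was low in Rep 2 and Rep 3 alike. Counts of 3 or fewer are compatible with a wide range of levels, and the log2 values of these members in Rep 2 depend on the prior count.

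Not all members dipped in Rep 2. ZNF431, whose mouse counterpart represses Ptch1, had 59.9, 58.8 and 26.2 CPM in the single cells, against 29.4, 34.2 and 37.5 CPM, and was therefore high in Rep 1 and Rep 2 and low in Rep 3. ZNF429 followed the same arrangement, with 28.8, 12.4 and 6.82 CPM in the single cells, against 8.62, 10.2 and 11.4 CPM.

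ZNF681 was above the pools in Rep 1 and below them in both other cells, at 78.3, 26.8 and 22.1 CPM in the single cells, against 30.2, 35.3 and 41.1 CPM. By contrast, ZNF492 and ZNF100 were above the pools only in Rep 3. ZNF492 had 13.7, 9.82 and 35.0 CPM in the single cells, against 16.3, 17.9 and 21.4 CPM, and ZNF100 had 34.1, 44.6 and 63.3 CPM, against 44.6, 51.8 and 54.0 CPM. ZNF726 was below the pools in Rep 1 and above them in the other cells, at 15.1, 28.3 and 36.9 CPM against 18.96, 21.6 and 25.0 CPM. Neither pattern held for ZNF730 and ZNF724P, which no single cell carried above the pools. ZNF730 had 8.48, 4.94 and 3.95 CPM in the single cells, against 6.71, 8.03 and 12.3 CPM, and ZNF724P had 8.81, 5.96 and 12.3 CPM, against 10.2, 11.2 and 13.3 CPM.

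ZNF91, the SVA repressor (chr19:23357696-23395560, minus strand), had 188.1, 127.1 and 161.6 CPM in the single cells, against 127.0, 137.4 and 151.5 CPM in the libraries of more cells. Its log2 fold change was 0.20 (SE 0.116, edgeR adjusted p = 0.334). ZNF254, at the centromere end of the window, had 83.2, 64.5 and 135.8 CPM against 79.5, 84.2 and 86.9 CPM. ZNF101, at the opposite end, had 19.9, 14.6 and 23.4 CPM against 18.9, 19.9 and 24.8 CPM. The nearest ZNF genes beyond the window lie farther from it than its own length. They were ZNF333, at a distance of 4.93 Mb, with 2.57, 4.23 and 13.9 CPM in the single cells, against 6.27 to 10.4 CPM, and ZNF536, at 6.24 Mb, with 93.3, 132.6 and 69.0 CPM, against 70.8 to 105.4 CPM.

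**Figure D4:**
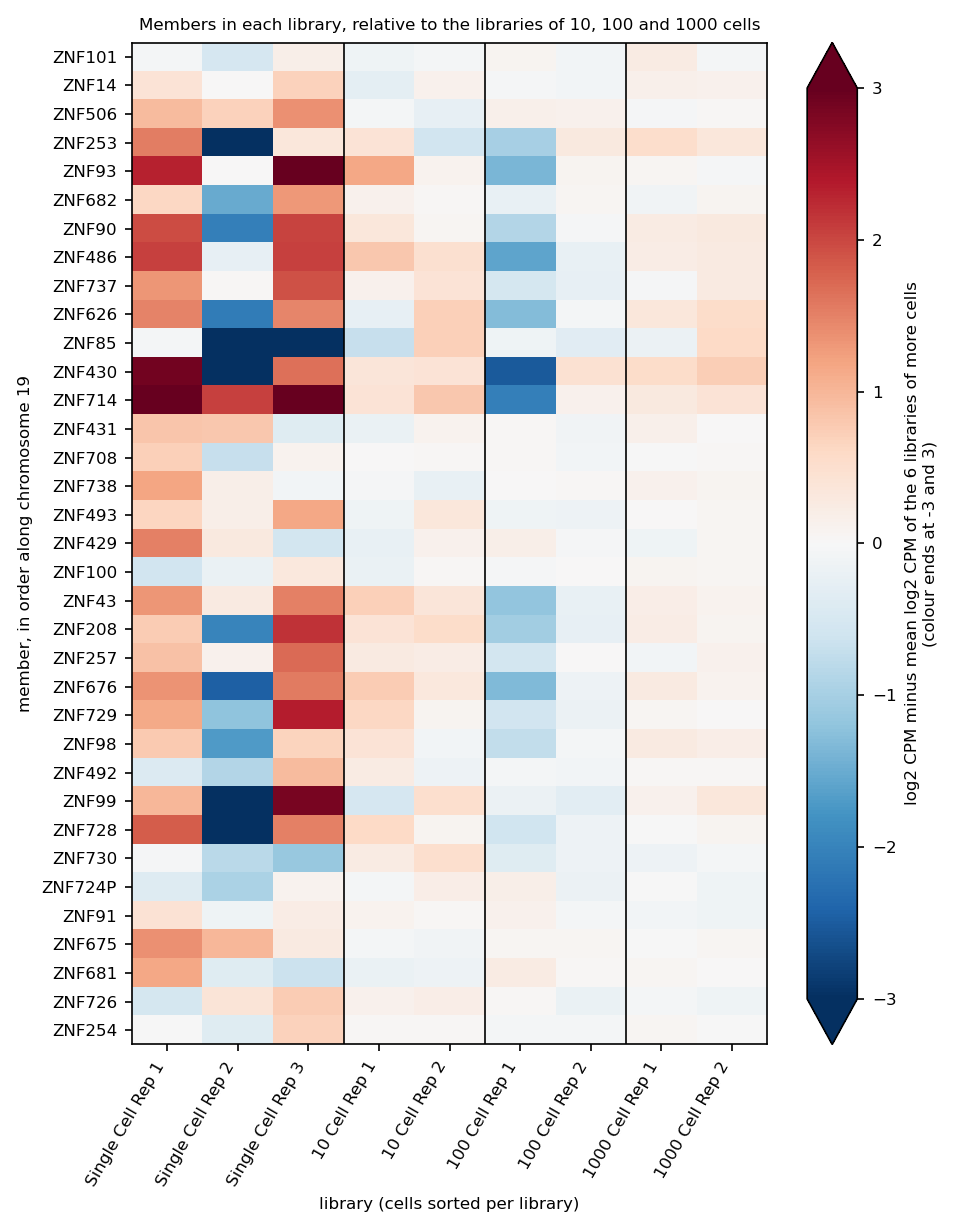
Log2 CPM of the 35 tested members in each of the 9 libraries, minus the mean log2 CPM of the 6 libraries of 10, 100 and 1000 cells, with members from top to bottom in their order along chromosome 19 and the colour ending at -3 and 3. The columns of Single Cell Rep 1 and Rep 3 are mostly red. That of Rep 2 holds most of the squares at the blue end of the scale, which ZNF85 also reaches in Rep 3. The column of 100 Cell Rep 1 is blue at 8 members by 1 or more.

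The differences between single cells exceeded those between pools. Between pairs of single cells, the median absolute log2 difference over members was 1.22 (Rep 1 and Rep 2), 0.71 (Rep 1 and Rep 3) and 1.16 (Rep 2 and Rep 3), against 0.58, 0.62 and 0.61 over all genes. The other ZNF genes of chromosome 19 gave 0.94, 0.87 and 0.97 in the same order, more than the members for Rep 1 and Rep 3. In the pairs of 10, 100 and 1000 cells the median over members was 0.30, 0.23 and 0.10, against 0.24, 0.22 and 0.10 over all genes. No test was made of these medians.

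Against the 1000-cell libraries alone, 0 members were called in single cells, and 0% of 15394 genes were (edgeR, smallest adjusted p over members 0.187). At an unadjusted p under 0.05, 4 members were higher, ZNF506, ZNF93, ZNF714 and ZNF675, and 0 lower, where 2.12% and 5.79% of all genes were. DESeq2 called 0 members, but gave an adjusted p for only 3 of 35 (0.247% of all genes higher and 0.0715% lower), and limma-voom called 0 members and 0% of all genes. The median log2 fold change was 0.54. These libraries also enter the comparison above, so the result is no separate evidence.

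For 10 cells against 1000 cells, 0 of 35 members were called by edgeR, DESeq2 or limma-voom. Of 15449 genes, edgeR called 0%, DESeq2 0.596% higher and 0.66% lower, and limma-voom 0.0388% higher and 0.0259% lower. DESeq2 gave an adjusted p for 21 of the 35 members. The median log2 fold change of 0.02 was near that of all genes (0.01). At an unadjusted p under 0.05, 4 members were higher and 0 lower (5.57% and 5.66% of all genes). The smallest p among these was that of ZNF208, with 84.3 and 91.3 CPM in 10 cells and 73.9 and 66.9 CPM in 1000 cells (log2 fold change 0.32, SE 0.0884, edgeR adjusted p = 0.347). Without 10 Cell Rep 1 the count called was 5 (25.7% of all genes), and without 10 Cell Rep 2 it was 12 (29.5%), in fits that assume the lone 10-cell library to vary like the 1000-cell ones.

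For 100 cells against 1000 cells, 0 of 35 members were called by edgeR, DESeq2 or limma-voom, where edgeR and limma-voom called 0% of 15597 genes and DESeq2 called 0.00641% higher and 0% lower. Even so, 28 of 35 members had a fold change below 0, with a median of -0.19 on the log2 scale against -0.001 for all genes, and the median stayed below 0 under each scaling tried. Of the other ZNF genes of chromosome 19, 127 of 202 were below 0 as well, with a median of -0.07. For ZNF genes of other chromosomes the median was 0.02. These differences between lists were not tested. At an unadjusted p under 0.05, 8 members were lower and 0 higher, where 0.904% and 1.11% of all genes were. These were ZNF90, ZNF486, ZNF43, ZNF208, ZNF676, ZNF729, ZNF98 and ZNF99.

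ZNF208 had 30.3 and 53.4 CPM in 100 Cell Rep 1 and Rep 2, and 73.9 and 66.9 CPM in 1000 Cell Rep 1 and Rep 2 (log2 fold change -0.75, SE 0.224, edgeR adjusted p = 0.952). ZNF676 had 12.9 and 28.9 CPM in 100 cells, and 39.1 and 34.6 CPM in 1000 cells, and ZNF486 had 3.64 and 9.50 CPM in 100 cells, and 12.9 and 13.3 CPM in 1000 cells. Rep 1 was the lower of the 100-cell libraries for each of these genes. Without it, 30 of 35 members were below 0 with a median of -0.17 on the log2 scale, and without Rep 2 it was 27 with a median of -0.27.

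Among the 6 libraries of more cells, 100 Cell Rep 1 was the lowest for 17 of 35 members, where it was the lowest for 23.6% of all genes. It held 52088772 counts, against 43174040 and 49148341 in the 10-cell libraries. The cause of these low values in 100 Cell Rep 1 was not tested. ZNF714 had 0.775 CPM there, against 3.67 to 5.98 CPM in the remaining pools. Without 100 Cell Rep 2, 16 members were called between 100 cells and 1000 cells, 15 of them lower and ZNF91 higher in 100 cells, along with 30.4% of all genes. Without 100 Cell Rep 1 the median log2 fold change of members was -0.17, and without 1000 Cell Rep 2 it was -0.18. For all genes these medians were 0 and 0.003. Each of these fits assumes the lone library of its group to vary like the other group.

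The corepressors on which KRAB proteins act were examined as a list of their own. Of 30 genes listed around TRIM28, SETDB1, HP1, the HUSH and NuRD complexes and DNA methylation, 0 were higher and 1 was lower in single cells, against 2.22% and 4.45% of all genes. At an unadjusted p under 0.05, 2 were higher and 5 lower, where 10.8% and 13.8% of all genes were, and DESeq2 called 1 higher and 3 lower, against 6.8% and 9.83%. The gene called was ATRX, a chromatin remodeller, with 327.8, 363.4 and 277.5 CPM in the single cells, against 408.1, 424.7 and 442 CPM (lowest, median and highest) in the libraries of more cells (log2 fold change -0.40, SE 0.0826, edgeR adjusted p = 0.0247).

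TRIM28 averaged 527.6 ± 97.0 CPM in single cells and 498.1 ± 19.2 CPM in the other 6 libraries (SD, n = 3 and 6). SETDB1 averaged 64.5 ± 12.9 CPM in single cells and 69.4 ± 3.86 CPM in the other libraries. Neither was called (edgeR adjusted p of 0.652 and 0.68). Within the window, 10 of the 13 gene models that are no members averaged under 1 CPM. Among the rest, the pseudogene IPO5P1 was higher in single cells, with 46.6, 42.1 and 51.4 CPM, against 31.1 ± 2.58 CPM (SD, n = 6) in the other libraries (log2 fold change 0.59, edgeR adjusted p = 0.0311), while LINC01224 and RPSAP58 were not called (adjusted p of 0.615 and 0.319).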

How the data were processed

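The authors sequenced 9 HAP1 libraries with 50-base paired-end reads. According to the submitters' processing notes, trimming used Trim Galore 0.6.7, alignment to hg38 used HISAT2 2.2.1, and counting used featureCounts (Subread 2.0.6). The deposited values are whole read counts per gene model, not normalized or pooled. Per the file headers, single reads rather than pairs were counted on the reverse strand, without reads that mapped to several places. The annotation release is not given in the sources used here. The kit has no molecular identifiers, so counts are of amplified reads. Totals ran from 42842970 to 61645865 counts.

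From these counts, genes were filtered with filterByExpr, scaled with TMM and fitted in edgeR 4.0.16 (R 4.3.3), each comparison on its own libraries alone. The quasi-likelihood test was used, and p-values were adjusted by Benjamini-Hochberg over all genes tested, with a threshold of 0.05. SE is the fold change over the root of F. Log2 CPM used a prior count of 2. DESeq2 1.42.0, limma-voom (limma 3.58.1), other scalings and filters, thinning, a common fit of 4 groups, the replicate number as a block and leaving out each library were the alternatives. The code was tested on simulated data with a spread per gene common to both groups. For single cells against the 6 libraries, edgeR called 25% of genes given a log2 change of 1 and 58% of those given 2. Against 1000 cells these shares were 2% and 38%, so a member that was not called may still differ.

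Named with values were the members that passed the test, ZNF90, ZNF208, ZNF676 and ZNF729, the 5 of highest CPM per kb, the 4 largest differences each way in each single cell among members of at least 1 CPM, members with known roles, those at the ends of the window, the nearest ZNF genes outside, corepressors that passed, TRIM28 and SETDB1. Genes named beyond this (members listed by their arrangement over the single cells, further calls of DESeq2 and of left-out libraries, and other genes of the window) were chosen after their values were seen. The members and lists were chosen with earlier results of these data known. The reading of the rule that drops members with exons on other contigs was added after the data were examined. Of the blood lineage markers listed, 1 is not reported here.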

Additional observations from a re-analysis of the deposited data

Results flagged for a closer look

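Within the 6 libraries of 10, 100 and 1000 cells, each of the 35 tested members and the summed level were searched for a library far from the rest, and chance flags about 1 in 20 such groups. ZNF93 had 12.9 CPM in 10 Cell Rep 1, where the next library had 6.12 CPM and the lowest 2.21 CPM. ZNF430 had 0.446 CPM in 100 Cell Rep 1, where the next library had 3.51 CPM and the highest 4.60 CPM.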

How the results depend on the processing

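For single cells against the 6 libraries of more cells, DESeq2 called 9 members (16.6% of all genes in either direction). The fit of all 9 libraries in 4 groups of common spread called 0 members and 0% of all genes. With each library left out in turn, the count was 0 to 18 (0% to 19.8% of all genes). The other alternatives gave 3 to 5 (3.31% to 12.4%). The median log2 fold change stayed above 0 throughout, at 0.22 with limma-voom (all genes -0.16) and 0.41 to 0.93 with a library left out. For single cells against 1000 cells the count was 0 in every alternative that kept both 1000-cell libraries, where at most 0.318% of all genes were called. For 10 against 1000 cells it was 0 to 12 with a library left out, and for 100 against 1000 cells 0 to 16, and 4 with no filter on low counts. In single cells against the 6 libraries, the members by the literal reading of the rule gave 4 calls of 31, all higher, and a median of 0.66. Of all genes, 2.22% were called higher there. A change of prior count cannot alter the order of libraries for a gene. It was thus no check of the counts of members above or below the 6 libraries. With library totals and no further scaling, and without ZNF90, ZNF208, ZNF676 and ZNF729, every such count kept within 1.5 times its value. The cause of these differences was not tested. In Single Cell Rep 2, 5 members had only 2 or 3 counts, and their log2 values there depend on the prior count.

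Replicate numbers did not pair the libraries (correlations of deviations -0.03 to 0.05). The number was also used as a replicate block, which drops Single Cell Rep 3. Then 5 members (ZNF431, ZNF506, ZNF675, ZNF714 and ZNF738) were called in single cells against the 6 libraries, along with 12.4% of all genes. For single cells and for 10 cells against 1000 cells, 0 members were called (0.0525% and 0.356% of all genes). For 100 against 1000 cells, 4 were called (0.128% of all genes). These were ZNF208, ZNF43, ZNF486 and ZNF676, all lower in 100 cells. In single cells against the 6 libraries, the median of members was 0.18. Under this block the log2 fold change turned to -0.33 for ZNF208, -0.13 for ZNF253, -0.19 for ZNF254, -0.64 for ZNF492, -0.048 for ZNF676, -0.23 for ZNF682, -0.031 for ZNF726, -0.24 for ZNF98 and -0.41 for ZNF99. With limma-voom it turned to -1.28 for ZNF253, -0.38 for ZNF430, -0.10 for ZNF492, -1.18 for ZNF728, -0.065 for ZNF98 and -0.92 for ZNF99. With each library left out in turn, the log2 fold changes that crossed 0 ranged from -0.37 to 0.082 for ZNF100, -0.28 to 0.056 for ZNF101, -0.14 to 1.55 for ZNF208, -0.74 to 0.96 for ZNF253, -0.18 to 0.39 for ZNF254, -0.078 to 1.02 for ZNF429, -0.63 to 0.42 for ZNF492, -0.52 to 0.59 for ZNF681, -0.087 to 0.995 for ZNF682, -0.23 to 0.45 for ZNF708, -0.003 to 0.58 for ZNF726, -0.13 to 0.68 for ZNF98 and -0.05 to 2.16 for ZNF99. None of these members was called with all libraries in the fit.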
